A study of Homo sapiens with 9 samples.

Results

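MicroRNA genes give rise to short RNAs that silence messenger RNAs, and their signals were followed here in HEK293 cells, a human embryonic kidney line, with and without the receptor GPR39. Probe sets whose platform annotation names a microRNA gene were reduced to 1 per gene, the one with the highest mean over the 9 arrays, and a gene was kept where that mean was at least 4.5 on the log2 scale of the deposited signals. This left 158 of 1071 microRNA genes (14.8%). The other 913 lay under that level. The genes were chosen by these 9-array means, so their levels are given as a description, without a test, whereas differences between groups were not used in the choice. Host genes with symbols ending in HG, transcripts that carry a microRNA, are described apart.

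Each of the 3 groups held 3 arrays. The mock group was naïve HEK293 cells without cumate. The GPR39 group was labelled as overexpressing GPR39, with cumate at 0.03 mg/mL, and the agonist group as overexpressing GPR39 with TC-G-1008 at 1 uM. GPR39 belongs to the G protein-coupled receptors and senses zinc. Cumate releases the repressor of an engineered gene switch, and TC-G-1008 is a synthetic compound that activates GPR39. All 3 groups shared the cell line and a DMEM medium with 10% FBS. Whether cumate was also given with the agonist, whether the line was 1 clone, and how long the cells were exposed are not stated in the labels. No group had cumate or the agonist without the receptor, so receptor and cumate cannot be told apart in GPR39 against mock. Cumate is listed for the GPR39 group only, so in agonist against GPR39 the agonist and a possible lack of cumate cannot be told apart. The replicates are called biological without a statement that they were separate cultures, and p-values then measure the spread between these arrays.

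A microRNA starts as a long primary transcript, often within the intron of another gene. DROSHA with DGCR8 cuts a hairpin from it, XPO5 carries the hairpin out of the nucleus, and DICER1 trims it to a duplex, of which 1 strand is loaded onto an Argonaute protein. Pairing of bases 2 to 8 of that strand, the seed, with a messenger RNA sets which transcripts are silenced. The labelled RNA was made from total RNA, and the sources used here do not say whether a probe set read the primary transcript, the hairpin or the mature strand. In bulk RNA, fewer cells of a type and less RNA per cell cannot be told apart.

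The hairpins of 5 genes whose signals differed between the groups are printed because the results turn on them. Sequences and positions are from RefSeq, build GRCh38.p14, and capitals mark the mature arms. MIR4534 lies at chr22:37988794-37988853 on the plus strand, MIR3143 at chr6:27147626-27147688 on the plus strand and MIR574 at chr4:38868032-38868127 on the plus strand. MIR196B lies at chr7:27169480-27169563 and MIR4737 at chr17:60043025-60043105, both on the minus strand. The hairpin of MIR3143 is printed without a marked arm.
MIR4534: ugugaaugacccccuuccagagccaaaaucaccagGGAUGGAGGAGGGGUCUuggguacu
MIR3143: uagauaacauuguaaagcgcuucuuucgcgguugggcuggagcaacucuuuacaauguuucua
MIR574: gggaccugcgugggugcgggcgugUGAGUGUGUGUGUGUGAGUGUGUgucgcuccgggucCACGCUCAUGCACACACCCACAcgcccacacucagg
MIR196B: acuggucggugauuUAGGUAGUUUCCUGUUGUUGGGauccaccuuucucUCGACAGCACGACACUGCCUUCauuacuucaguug
MIR4737: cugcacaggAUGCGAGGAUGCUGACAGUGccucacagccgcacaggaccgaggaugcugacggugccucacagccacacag

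Mature strands of the other genes past the threshold are shown with the seed in capitals, so that their targeting letters can be compared. Where the table holds both arms of a gene, 1 is printed.
miR-4525: gGGGGGAUgugcaugcugguu
miR-4756-5p: cAGGGAGGcgcucacucucugcu
miR-4519: cAGCAGUGcgcagggcug
miR-1910-5p: cCAGUCCUgugccugccgccu
miR-941: cACCCGGCugugugcacaugugc
miR-187-3p: uCGUGUCUuguguugcagccgg
miR-3689d: gGGAGGUGugaucucacacucg
miR-4324: cCCUGAGAcccuaaccuuaa
These 8 seeds all differ from each other. Mature strands were counted for 140 of the 158 genes, with 191 distinct seeds among 200 arms, and 8 seeds are shared by several of these genes. This count leaves out some genes of the 158 that are not reported here.

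The families known from most human cells are represented by a few genes each. The seed GAGGUAG joins MIRLET7D, MIRLET7E and MIR98 of the let-7 family, which restrains growth and pluripotency genes. AUUGCAC joins MIR25 and MIR92B, and ACAUUCA joins the neighbours MIR181C and MIR181D. AGGGAGG is shared by MIR1321 and the 5p arm of MIR4756.
let-7d-5p: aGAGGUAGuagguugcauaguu
let-7e-5p: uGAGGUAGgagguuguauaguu
miR-98-5p: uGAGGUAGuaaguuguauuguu
miR-25-3p: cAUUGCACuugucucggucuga
miR-92b-3p: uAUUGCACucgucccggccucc
miR-181c-5p: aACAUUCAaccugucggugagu
miR-181d-5p: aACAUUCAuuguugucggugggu
miR-1321: cAGGGAGGugaaugugau

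Before the comparisons, 1 mock array needs a remark. The medians of the arrays ran from 3.13 to 3.22, and arrays of a group correlated at 0.984 to 0.991 across all probe sets. Over the 158 microRNA genes, mock replicate 1 correlated at a mean of 0.942 with the GPR39 arrays and at 0.879 with the other mock arrays. The count of microRNA genes past the threshold in each comparison with the mock group is therefore also given without it, with changes of some genes. The GPR39 probe set was too dim to be tested, at 2.47 ± 0.07 in mock, 2.58 ± 0.04 in the GPR39 group and 2.58 ± 0.11 in the agonist group (log2 signal, SD, n = 3), with overlapping arrays, so it gave no check of the labels. The HEK293 markers IRS4 (mock mean 10.54) and LIN28B (8.88) were bright, but the dimmest of the 4 named markers of that list had a 9-array mean of 3.77. No gene of the leukocyte, hepatocyte, muscle, neuron, fibroblast, embryonic stem cell or kidney epithelium marker lists reached 4.5, and MIR375, listed for islets, stood at 6.99. The average over the 4 named HEK293 markers ran from 7.60 to 7.84 in mock, 7.30 to 7.35 in the GPR39 group and 7.09 to 7.28 in the agonist group, and that over the 7 named leukocyte markers, none brighter than a mean of 3.24, from 2.65 to 2.72, 2.63 to 2.88 and 2.85 to 2.92, and their part in the results was not tested.

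The 158 genes had 9-array means from 4.52 to 10.16, with a median of 5.36 against 2.32 for all 1071 microRNA genes. The highest was MIR4737 at 10.16, followed by MIR574 at 8.28, MIR3143 at 7.79, MIR5047 at 7.74, MIR4525 at 7.61 and MIR1910 at 7.51. MIR4673 at 7.42, MIR4442 at 7.37, MIR3907 at 7.26, MIR663B at 7.24, MIR891A at 7.24 and MIR3619 at 7.05 completed the 12 highest. Signals of different probe sets do not rank the abundance of their RNAs. Just inside the level lay MIR4686, MIR645 and MIR181C at 4.52 each, and just outside it MIR4708 and MIR1290 at 4.49 and MIR4270 at 4.48. Genes numbered 1000 or higher, which were catalogued later than the classical ones, made up 97 of the 158 (61.4%) and 545 of the 1071 (50.9%).

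The well-detected genes had hairpins rich in G and C. Hairpin sequences were in the RefSeq table for 134 of the 158 and for 749 of the others. The median share of G and C was 61.2% (quartiles 53.3% and 66.3%) against 46.2% (40.6% and 54.2%). Among hairpins with at least 60% G and C, 69 of 153 genes (45.1%) reached the level, whereas under 40% it was 5 of 173 (2.89%). Across all 883 hairpins, share and mean signal correlated at r = 0.58 (Spearman 0.63), and within the 134 at 0.13 (0.19). These are correlations across genes, which are not independent replicates, and the part of base composition in probe binding was not tested. MIR3143, with 41.3% G and C, and MIR196B, with 47.6%, were among the less GC-rich bright genes, and MIR574 stood at 65.6%.

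**Figure D1:**
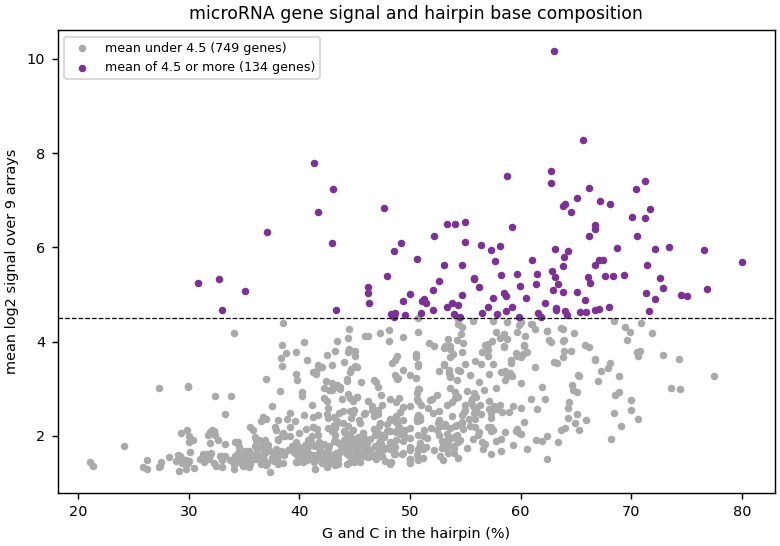
Mean log2 signal over 9 arrays (y axis) against the percentage of G and C in the hairpin (x axis), 1 point per microRNA gene with a hairpin in the table. Purple points are the 134 genes at or above 4.5, which crowd to the right; the 69 such genes at 60% or more are 45.1% of the 153 hairpins there.

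In GPR39 against mock, which asks what the receptor and cumate together did, no microRNA gene passed the threshold of an adjusted p of 0.05 (limma with Benjamini-Hochberg adjustment over all 33376 probe sets tested). This 0 of 158 stands beside 1.17% of all probe sets tested (0.749% higher and 0.422% lower, a balance that turned without mock replicate 1, where 31.6% of the calls were higher) and 1.8% of those with a mean of at least 4.5. At an unadjusted p under 0.05 there were 15 genes (9.49%), 8 higher and 7 lower, against 14.8% of all. The median change was 0.00 and 79 of 158 lay above 0. The 4 smallest p-values belonged to MIR574, MIR4519, MIR622 and MIR4518.

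MIR622 read 4.65, 4.45 and 4.40 in mock, 4.80, 4.81 and 4.83 in the GPR39 group and 4.74, 4.69 and 4.68 in the agonist group. Its GPR39 arrays were all above its mock arrays, by 0.32 ± 0.08 (log2 change, SE; adjusted p = 0.117, limma). MIR4518 read 6.20, 6.18 and 6.48 in mock and 5.46, 5.65 and 6.05 in the GPR39 group, a difference of -0.57 ± 0.16 without overlap (adjusted p = 0.163, limma). A second, dimmer MIR4518 probe set with a 9-array mean of 2.65 is annotated to the gene.

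Without mock replicate 1, 7 microRNA genes passed in this comparison, 2 higher and 5 lower, beside 4% of all probe sets. The largest difference was in MIR1299, whose mock arrays read 5.59, 7.48 and 7.84, its GPR39 arrays 4.66, 5.27 and 5.69 and its agonist arrays 4.69, 5.38 and 5.19. Mock replicate 1 sat with the GPR39 arrays, and the difference without it was -2.46 ± 0.32 (adjusted p = 0.0129, limma). MIR644A behaved alike, with 4.18, 5.15 and 6.11 in mock, 4.27, 3.89 and 4.32 in the GPR39 group and 4.72, 4.85 and 4.61 in the agonist group, a difference of -1.47 ± 0.27 without the array (adjusted p = 0.0349, limma).

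MIR4521 went the other way. It read 7.24, 6.26 and 5.77 in mock, 7.23, 7.11 and 7.04 in the GPR39 group and 6.63, 6.60 and 6.95 in the agonist group, and was 1.11 ± 0.17 higher in the GPR39 group without the array (adjusted p = 0.0203, limma). Its other probe set, at a 9-array mean of 1.67, was too dim to be tested. MIR3939 (-0.98), MIR570 (-0.76), MIR4324 (-0.68) and MIR622 (0.39) were the other 4. In 8 of the 158 genes, mock replicate 1 lay over 1 log2 unit from the mean of the other mock arrays, below it in 7. The median absolute gap was 0.221 for the microRNA genes and 0.126 for all tested probe sets with a mean of at least 4.5.

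**Figure D2:**
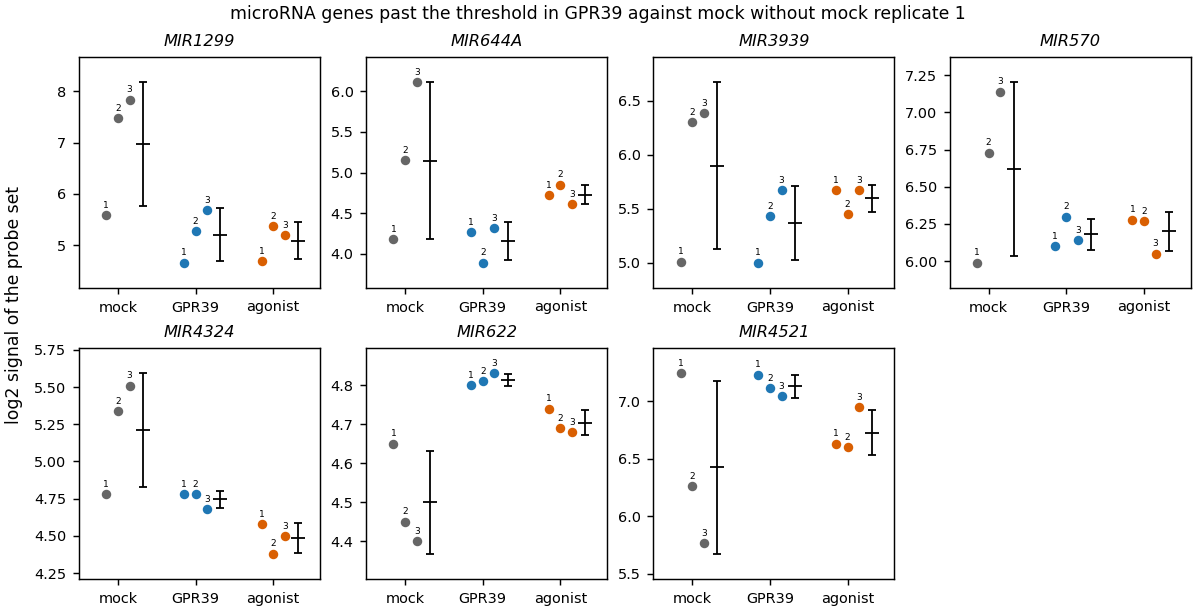
Log2 signal by array (points, numbered by replicate) with the mean and SD of each group for the 7 microRNA genes past the threshold in GPR39 against mock once mock replicate 1 was left out; each panel has its own y axis, which does not start at 0. For MIR1299 mock replicate 1 reads 5.59 beside 7.48 and 7.84 in the other mock arrays.

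In agonist against GPR39, which compares 2 groups with the receptor label that differ in TC-G-1008 and possibly in cumate, 4 microRNA genes rose and none fell. This is 2.53% of the 158 beside 9.06% of all probe sets tested, of which 3.12% rose and 5.95% fell, and beside 15.3% of the tested probe sets with a mean of at least 4.5. At an unadjusted p under 0.05 there were 28 genes (17.7%), 23 higher and 5 lower, against 23.4% of all. The median change over the 158 was 0.14, with 119 above 0 (75.3%), whereas all probe sets tested had a median of 0.01 and those with a mean of at least 4.5 a median of -0.03. Agonist replicate 1 was the highest array in this respect. The median deviation of the 158 genes from their 9-array means was 0.21 there, 0.02 in agonist replicate 2 and 0.07 in agonist replicate 3, and it lay between -0.07 and 0.02 in the 6 other arrays. Without agonist replicate 1 the median change was 0.11. Whether microRNA genes differ from other probe sets in this was not tested.

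**Figure D3:**
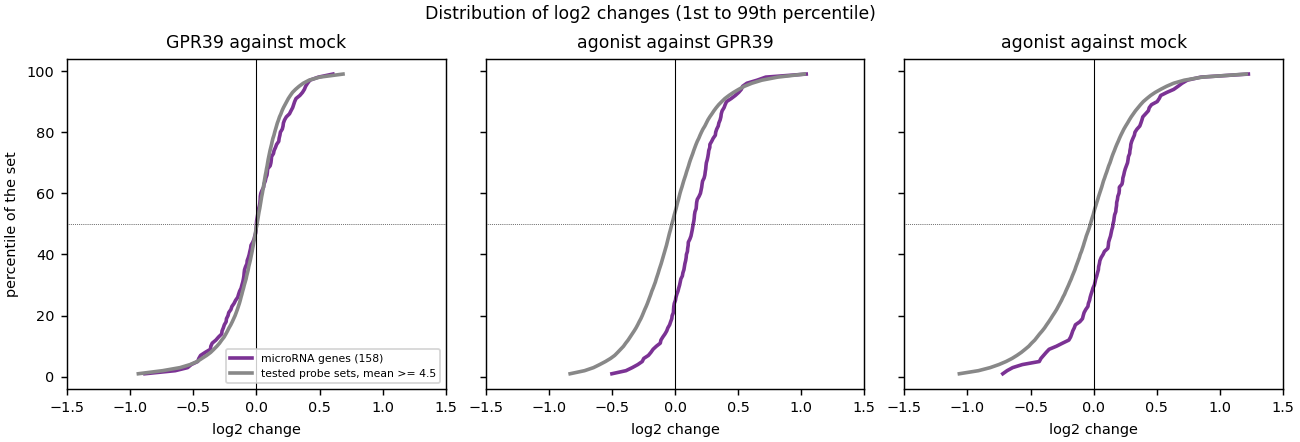
Cumulative distributions of log2 changes in the 3 comparisons, as percentile of the set (y axis) against log2 change (x axis), for the 158 microRNA genes (purple) and all tested probe sets with a mean of at least 4.5 (grey). The purple curve passes the middle line at 0.00 in GPR39 against mock, at 0.14 in agonist against GPR39 and at 0.15 in agonist against mock.

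MIR4534 had the largest rise. It read 5.90, 5.85 and 5.88 in mock, 6.28, 6.31 and 6.13 in the GPR39 group and 7.86, 7.35 and 7.27 in the agonist group. The 3 groups did not overlap and the agonist arrays stood apart from both others. The agonist group was 2.38-fold above the GPR39 group, a log2 change of 1.25 ± 0.15 (adjusted p = 0.00241, limma), and the GPR39 group was 0.37 ± 0.15 above mock (adjusted p = 0.299).

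MIR3143, on chromosome 6 between the histone gene H2AC12 and PRSS16, read 7.21, 7.10 and 7.21 in mock, 7.32, 7.69 and 7.71 in the GPR39 group and 8.80, 8.73 and 8.32 in the agonist group. Again no agonist array overlapped another group. The rise over the GPR39 group was 2.07-fold, a log2 change of 1.05 ± 0.15 (adjusted p = 0.0053, limma). Neither H2AC12 nor PRSS16 was tested.

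MIR4756 and MIR3689D2 rose by less. MIR4756 read 4.88, 4.67 and 4.96 in the GPR39 group and 5.48, 5.19 and 5.36 in the agonist group, a change of 0.50 ± 0.12 (adjusted p = 0.0431, limma). MIR3689D2 read 4.59, 4.96 and 4.51 in the GPR39 group, 5.24, 5.14 and 5.06 in the agonist group and 4.97, 4.96 and 4.96 in mock. Its rise of 0.46 ± 0.12 (adjusted p = 0.0469) started from GPR39 arrays that were lower than, or level with, mock. Both calls were near the threshold. That of MIR4756 ranged over adjusted p = 0.0403 to 0.134 when each array was left out in turn and was lost without mock replicate 1, any GPR39 array, or agonist replicate 1 or 3, and that of MIR3689D2 (0.0133 to 0.143) was kept without GPR39 replicate 2 only. Without GPR39 replicate 3 or agonist replicate 3, 2 of the 158 passed, beside 4.59% and 6.89% of all probe sets. Without mock replicate 1, MIR941-1, MIR612, MIR2467 and MIR1301 passed beside MIR4534 and MIR3143, for 6 of 158 beside 9.54% of all probe sets.

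In agonist against mock, where receptor, agonist and any cumate act together, 9 microRNA genes rose and 3 fell. This is 7.59% of the 158 beside 15% of all probe sets tested, of which 6.11% rose and 8.94% fell, and beside 24.4% of the tested probe sets with a mean of at least 4.5. At an unadjusted p under 0.05 there were 37 genes (23.4%) against 28.8% of all. The share that rose, 9 of 158, was near that of all probe sets tested. Among the 17206 with a mean of at least 4.5 the share that rose was larger, at 1598, and 2599 fell. The median change was 0.15, with 111 of 158 above 0 (70.3%). This comparison shares the agonist arrays with the preceding one and the mock arrays with the first. Across the 3 comparisons 13 microRNA genes passed at least once, and MIR4534, MIR3143 and MIR4756 did so in both that involve the agonist group.

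**Figure D4:**
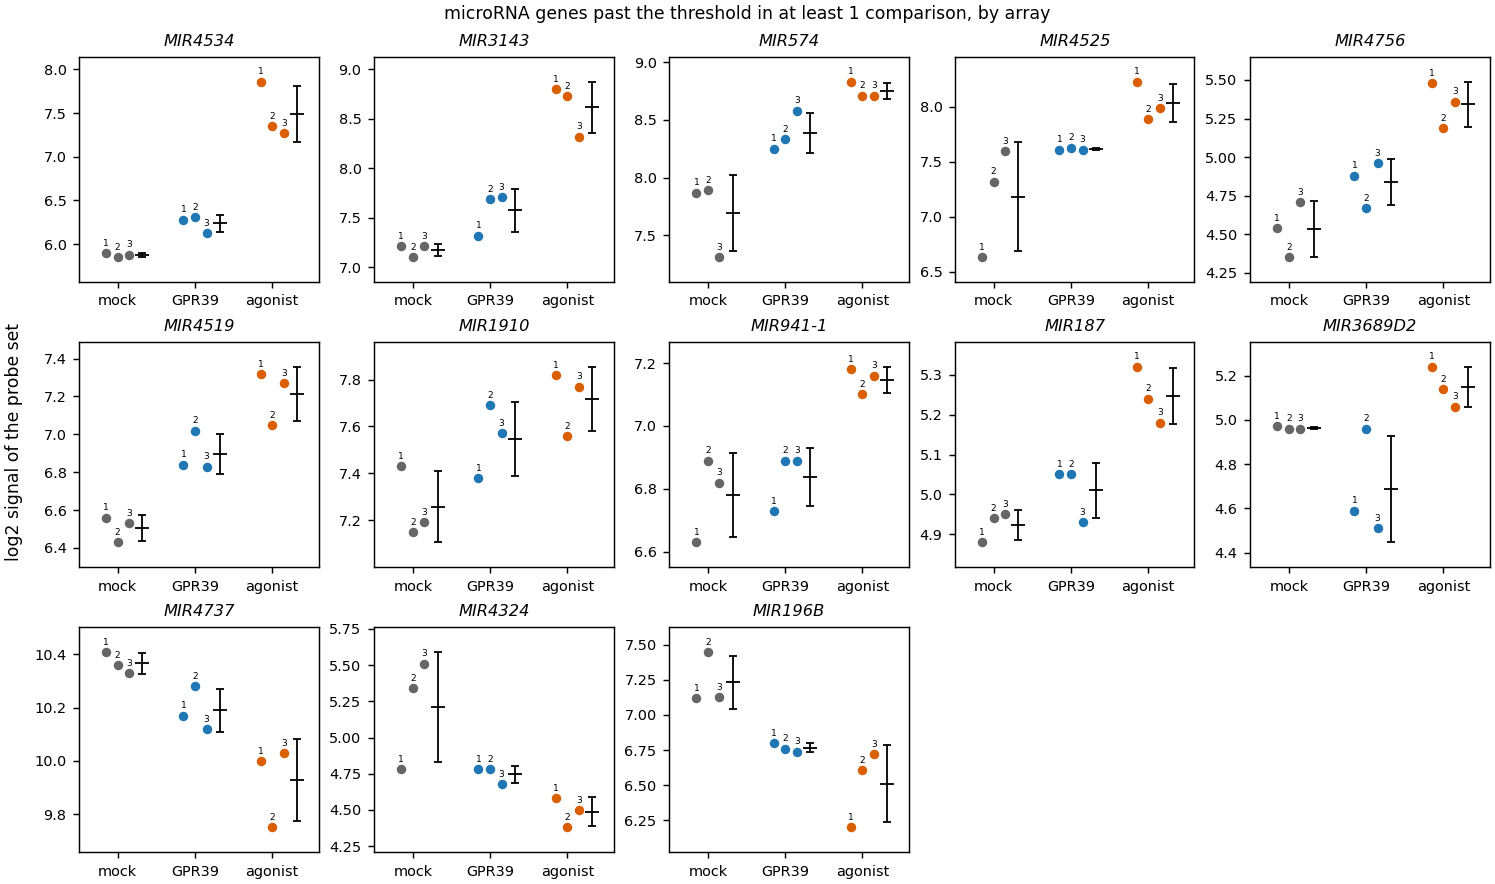
Log2 signal by array (points, numbered by replicate) with the mean and SD of each group for the 13 microRNA genes past the threshold in at least 1 comparison; each panel has its own y axis, which does not start at 0. The agonist arrays of MIR4534 lie between 7.27 and 7.86, above 6.31, its highest array elsewhere.

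Against mock, MIR4534 was 3.07-fold higher in the agonist group, a log2 change of 1.62 ± 0.15 (adjusted p = 0.000317, limma), and MIR3143 was 2.72-fold higher (1.44 ± 0.15, adjusted p = 0.000639). MIR574, whose mature arms derive from an intron of FAM114A1, read 7.87, 7.89 and 7.31 in mock, 8.25, 8.33 and 8.58 in the GPR39 group and 8.83, 8.71 and 8.71 in the agonist group. All 3 groups were apart, with most of the step between mock and GPR39 (0.70 ± 0.16, adjusted p = 0.104) and the whole of it past the threshold (1.06 ± 0.16, adjusted p = 0.00384). A second MIR574 probe set holds exactly the same values and adds no evidence.

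MIR4519, within BCL7C on chromosome 16, read 6.56, 6.43 and 6.53 in mock, 6.84, 7.02 and 6.83 in the GPR39 group and 7.32, 7.05 and 7.27 in the agonist group. The groups were again apart, with 0.39 ± 0.10 between mock and GPR39 (adjusted p = 0.115), 0.32 ± 0.10 between GPR39 and agonist (adjusted p = 0.0813) and 0.71 ± 0.10 in all (adjusted p = 0.00197). MIR4756 rose by 0.81 ± 0.12 (adjusted p = 0.00382) from mock arrays of 4.54, 4.35 and 4.71. These graded series, low in mock and high with the agonist, were also the shape of MIR4534.

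The other 4 rises were smaller or wider. MIR4525 read 6.63, 7.32 and 7.60 in mock, 7.61, 7.63 and 7.61 in the GPR39 group and 8.23, 7.89 and 7.99 in the agonist group, a change of 0.85 ± 0.22 (adjusted p = 0.0363), with mock replicate 1 far below the rest. MIR1910 rose by 0.46 ± 0.12 (adjusted p = 0.0333). MIR941-1, 1 of several near-identical copies that a probe set may not separate, rose by 0.37 ± 0.09 (adjusted p = 0.0259), and MIR187 by 0.33 ± 0.07 (adjusted p = 0.0169). None of these 3 had an agonist array below its highest mock array. With each array left out in turn, adjusted p ranged from 0.0154 to 0.111 for MIR4525, which kept its call without mock replicate 1 or 3 only, and from 0.0233 to 0.108 for MIR1910, lost without mock replicate 2 or 3, GPR39 replicate 3 or agonist replicate 1 or 3. MIR941-1 (0.0322 to 0.0752) was lost without mock replicate 1 or 3 or agonist replicate 1 or 3, and MIR187 without agonist replicate 1 (0.0526).

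Of the 3 that fell, MIR196B is encoded in the HOXA cluster between HOXA9 and HOXA10, and its family is known to repress HOX messages. It read 7.12, 7.45 and 7.13 in mock, 6.80, 6.76 and 6.74 in the GPR39 group and 6.20, 6.61 and 6.72 in the agonist group, stepwise lower and without overlap. It was 1.65-fold lower in the agonist group than in mock (-0.72 ± 0.15, adjusted p = 0.0126, limma). HOXA9 and HOXA10 were not tested. Its relative MIR196A2, under the level, read 2.44 in mock, 2.64 in the GPR39 group and 3.27 in the agonist group as group means. MIR196A2 passed with a rise in agonist against GPR39 (adjusted p = 0.0216, limma), a comparison in which MIR196B did not pass. Of the 3 named genes of the family, 2 passed in agonist against mock, MIR196B among them.

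MIR4737 read 10.41, 10.36 and 10.33 in mock, 10.17, 10.28 and 10.12 in the GPR39 group and 10.00, 9.75 and 10.03 in the agonist group. It was 1.36-fold lower with the agonist than in mock (-0.44 ± 0.09, adjusted p = 0.0135, limma), again without overlap. Its hairpin lies inside HEATR6, whose strand the tables used here do not give. The HEATR6 probe set changed by -0.43 ± 0.07 in the same comparison (adjusted p = 0.00478).

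MIR4324 read 4.78, 5.34 and 5.51 in mock, 4.78, 4.78 and 4.68 in the GPR39 group and 4.58, 4.38 and 4.5 in the agonist group. It fell by 0.72 ± 0.17 (adjusted p = 0.0254), and mock replicate 1 was level with the GPR39 arrays. Its adjusted p ranged from 0.00142 without that array to 0.0872, and its call was lost without either other mock array or any agonist array. Leaving out that array changed the count of microRNA genes past the threshold in agonist against mock from 12 to 19, beside 15% of all probe sets, and MIR941-1 no longer passed.

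No gene of the shared-seed families passed, other than MIR4756 and MIR3689D2. Group means of MIR98 were 6.21 ± 0.27 in mock, 5.84 ± 0.22 in the GPR39 group and 6.22 ± 0.30 in the agonist group (SD, n = 3). MIRLET7D stood at 4.46 ± 0.31, 4.66 ± 0.03 and 4.66 ± 0.24, and MIRLET7E at 4.66 ± 0.14, 4.75 ± 0.15 and 4.79 ± 0.14. None of these let-7 genes passed in any comparison, and their arrays overlapped between mock and agonist.

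MIR25, of a paralogue of the growth-promoting MIR17-92 cluster, stood at 5.90 ± 0.38, 5.93 ± 0.13 and 6.08 ± 0.16. MIR92B, with the same seed, stood at 4.66 ± 0.35, 5.02 ± 0.38 and 5.26 ± 0.23, with 0.60 ± 0.24 between agonist and mock (adjusted p = 0.138). MIR181D stood at 4.88 ± 0.21, 5.21 ± 0.11 and 5.46 ± 0.48 (0.58 ± 0.22, adjusted p = 0.128) and its neighbour MIR181C at 4.45 ± 0.11, 4.5 ± 0.14 and 4.60 ± 0.25. MIR1321, which shares a seed with MIR4756, stood at 4.58 ± 0.02, 4.63 ± 0.08 and 4.42 ± 0.15 (-0.16 ± 0.09 between agonist and mock, adjusted p = 0.291), so the pair had changes of opposite sign.

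Hairpins within 10000 bases of each other on a strand formed 5 groups with 11 of the genes. MIR424 and MIR503 on chromosome X, known from cell-cycle arrest, had changes of -0.31 ± 0.09 (adjusted p = 0.0789) and 0.19 ± 0.15 (adjusted p = 0.503) in agonist against GPR39. In the MIR3689 group on chromosome 9, MIR3689D2 passed there and MIR3689A (0.03 ± 0.30, adjusted p = 0.967) and MIR3689D1 (0.32 ± 0.17, adjusted p = 0.295) did not, and these near-identical hairpins may share probes. MIR99B beside MIRLET7E, and MIR1914 beside MIR647, held no gene past the threshold.

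Of the listed families, the 4 named genes of MIR15 and MIR16, the 4 of MIR29 and the 3 of MIR125 held none that reached 4.5, and MIR30E and MIR26B were the only ones of theirs. MIR30E stood at 4.73, 4.97 and 4.91 and MIR26B at 5.31, 5.34 and 5.42 as means of mock, GPR39 and agonist. Stimulus-responsive microRNAs from textbook knowledge, 17 of 19 with a named probe set, all lay under the level and none of the 8 tested passed. MIR21, induced by growth signals in many cells, stood at 3.14 ± 0.10, 3.17 ± 0.21 and 3.57 ± 0.42, and MIR221 at 3.89 ± 0.35, 4.25 ± 0.11 and 4.40 ± 0.09.

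Most of the genes lie within another gene. Of the 134 with a position, 83 (61.9%) lay inside a gene of the same strand, 10 only inside a gene of the opposite strand, 17 only inside one whose strand the tables do not give, and 24 in no gene. Among the other 749 microRNA genes 420 (56.1%) lay inside a same-strand gene. A host on the same strand had a tested probe set for 47 of the genes. Host and microRNA gene had changes of the same sign in 17, 30 and 21 of the 47 pairs in GPR39 against mock, agonist against GPR39 and agonist against mock. Past the threshold, 1 host fell in the first, 3 fell in the second, and 2 rose and 5 fell in the third. Of all probe sets tested, 1.17%, 9.06% and 15% passed. Of the microRNA genes in the pairs, MIR4534 passed in both comparisons with the agonist group, and MIR1910 and MIR4519 in agonist against mock. No pair had both past the threshold in the same comparison. With so few calls, this does not show whether host and microRNA gene move together.

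TRIB2, a pseudokinase and the host of MIR3125, fell by 1.65 ± 0.09 between mock and agonist (adjusted p = 2.73e-05, limma), whereas MIR3125 read means of 5.71, 5.71 and 5.71. Without mock replicate 1, MIR3125 had a change of -0.24 ± 0.15 in this comparison (adjusted p = 0.335, limma). FADS1, a fatty acid desaturase and the host of MIR1908, fell by 0.32 ± 0.07 (adjusted p = 0.0184), with 0.29 ± 0.15 for MIR1908 (adjusted p = 0.235). POLR2F, a shared RNA polymerase subunit and the host of MIR4534, had a change of -0.03 ± 0.06 (adjusted p = 0.786) where MIR4534 rose by 1.62. The POLR2F probe set was dim, with a 9-array mean of 3.51, so it may not show a change of the host. BCL7C, the host of MIR4519, had -0.44 ± 0.14 (adjusted p = 0.08) where MIR4519 rose by 0.71. In these 4 pairs the host and the microRNA gene differed in direction or in size. In other pairs the host passed with a change of the same sign as that of its microRNA gene. SND1, the host of MIR593, rose by 0.30 ± 0.07 (adjusted p = 0.0237), with 0.32 ± 0.10 for MIR593 (adjusted p = 0.0786). SREBF1, a regulator of lipid synthesis and the host of MIR33B, rose by 0.36 ± 0.09 (adjusted p = 0.0356), with 0.23 ± 0.23 for MIR33B (adjusted p = 0.569).

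Of 26 host genes named with HG, 16 were tested. In GPR39 against mock 1 of the 16 rose (6.25%, beside 1.17% of all probe sets tested), and in each comparison with the agonist group 2 rose and none fell (12.5%, beside 9.06% in agonist against GPR39 and 15% in agonist against mock). The shares with the agonist group were near the general ones. MIR7-3HG, the host of MIR7-3 and known from neuroendocrine cells, read 4.04, 3.94 and 4.47 in mock, 5.21 in each GPR39 array and 6.12, 6.16 and 6.19 in the agonist group. The groups were far apart, with log2 changes of 1.06 ± 0.13 (adjusted p = 0.0093), 0.95 ± 0.13 (adjusted p = 0.00423) and 2.01 ± 0.13 (adjusted p = 5.2e-05, limma). The 3 GPR39 values are exactly equal in the deposited table, which understates the spread. The first of these was lost without GPR39 replicate 2 (adjusted p = 0.0538) or 3 (0.0545). MIR7-3 itself, at a mean of 2.04, was too dim to be tested.

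MIR22HG, a host transcript known to respond to stress, read 3.60, 3.69 and 3.78 in mock, 4.03, 4.49 and 4.26 in the GPR39 group and 4.71, 5.21 and 4.88 in the agonist group. It rose by 0.67 ± 0.15 over the GPR39 group (adjusted p = 0.0325) and by 1.24 ± 0.15 over mock (adjusted p = 0.00139). The rise over the GPR39 group was lost, at up to 0.101, without mock replicate 2, GPR39 replicate 1 or 3, or agonist replicate 2 or 3. Without mock replicate 1, or without agonist replicate 1, 4 host genes passed in agonist against mock, beside 15% and 11.6% of all probe sets. MIR17HG, the host of the MIR17-92 cluster, stood at 3.65 ± 0.12, 3.73 ± 0.06 and 3.99 ± 0.19 and did not pass. MIR4435-2HG, the brightest of the 16, stood at 8.10 ± 0.02, 8.27 ± 0.05 and 8.02 ± 0.09 and did not pass either.

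**Figure D5:**
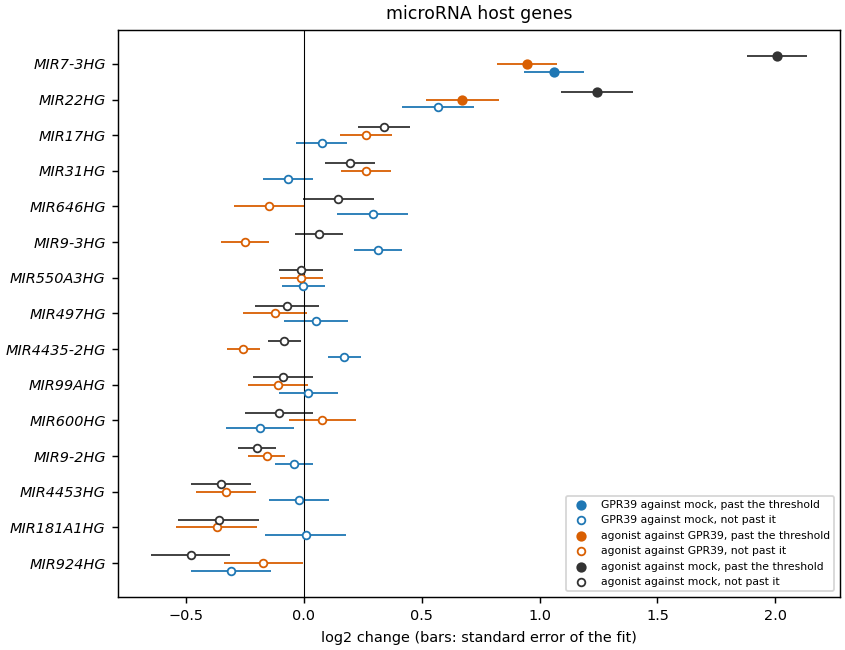
Log2 changes (x axis, bars are standard errors of the fit) of tested host genes with symbols ending in HG, 1 line per gene and 1 colour per comparison. MIR210HG, also tested and counted in the text, is not drawn. Filled points passed the threshold. MIR7-3HG lies at 1.06, 0.95 and 2.01, and MIR22HG is filled in the comparisons with the agonist group only.

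Of 47 genes listed for making microRNAs and carrying out silencing, 30 had a named probe set and 29 were tested. None passed in GPR39 against mock, beside 1.17% of all probe sets. There 4 (13.8%) had an unadjusted p under 0.05, beside 14.8% of all and 19% of those with a mean of at least 4.5. In agonist against GPR39, 1 rose and 3 fell (13.8% of 29, beside 9.06% of all and 15.3% of probe sets with a mean of at least 4.5), and in agonist against mock 2 rose and 5 fell (24.1%, beside 15% and 24.4%). All 29 had means above 4.5, and their shares lay near those of probe sets of that level. The 4 in agonist against GPR39 became 1 or 2 without any GPR39 array or agonist replicate 2 or 3, beside 4.59% to 6.89% of all probe sets. The 7 in agonist against mock became 4 without agonist replicate 3, beside 12.2%. DROSHA, DICER1 and the Argonaute genes of the list had no named probe set, so they were not measured here. Of the processing genes that were, DGCR8 stood at 6.80, 6.86 and 6.80 and XPO5 at 8.69, 8.76 and 8.83 as group means. TARBP2, a partner of DICER1, stood at 5.14, 5.12 and 5.20, and none of these passed.

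LIN28B, which blocks the processing of let-7 hairpins, read 8.92, 8.85 and 8.85 in mock, 9.05, 8.97 and 8.96 in the GPR39 group and 8.60, 8.62 and 8.52 in the agonist group. It fell by 0.41 ± 0.06 between GPR39 and agonist (adjusted p = 0.00751, limma) and by 0.30 ± 0.06 against mock (adjusted p = 0.0174, and 0.0511 without agonist replicate 3). The let-7 genes above, MIRLET7D, MIRLET7E and MIR98, had changes of 0.00 ± 0.17, 0.05 ± 0.11 and 0.38 ± 0.19 between GPR39 and agonist, none past the threshold. These are 3 of 11 named let-7 and MIR98 genes, of which 8 were tested and none passed. The average over the 11 ran from 3.18 to 3.31 in mock, 3.15 to 3.19 in the GPR39 group and 3.33 to 3.39 in the agonist group. Its difference between groups, and any link to LIN28B, was not tested.

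PARN and PAN2, deadenylases that shorten poly(A) tails, were lower in the agonist group than in mock. PARN read 8.37, 8.47 and 8.37 in mock, 8.14, 8.26 and 8.24 in the GPR39 group and 7.92, 7.85 and 7.73 in the agonist group, and fell by 0.57 ± 0.08 against mock (adjusted p = 0.00197). PAN2 fell by 0.68 ± 0.09 (adjusted p = 0.00235), whereas its partner PAN3 had -0.14 ± 0.07 (adjusted p = 0.222). Of the decapping genes DCP1A rose by 0.68 ± 0.09 (adjusted p = 0.00219) and DCP2, the catalytic subunit, fell by 0.43 ± 0.09 (adjusted p = 0.0122). SND1, a nuclease, rose by 0.30 ± 0.07 (adjusted p = 0.0237) and the helicase DDX17 fell by 0.25 ± 0.07 (adjusted p = 0.0414). All these changes are against mock. In agonist against GPR39, PARN changed by -0.378 (adjusted p = 0.0199, limma), PAN2 by -0.375 (0.0451) and DCP1A by 0.479 (0.018). There SND1 (0.244, adjusted p = 0.0733), DCP2 (-0.147, 0.346) and DDX17 (-0.029, 0.838) did not pass. DDX17 did not pass with any 1 array left out (0.054 to 0.11), and SND1 did not without mock replicate 1 or agonist replicate 1 or 3 (up to 0.068).

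The microRNA genes were measured less evenly than other bright probe sets. Their median residual SD was 0.23 (range 0.06 to 0.79), against 0.12 for all tested probe sets with a mean of at least 4.5. MIR1299 had the widest spread at 0.79. In 26 of the 158 (16.5%) at least 2 arrays of a group held exactly equal values, as in 20.4% of tested probe sets with a mean of at least 4.5, and 9 of the 158 repeat another row of the table exactly.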

How the data were processed

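Signals of 53617 probe sets on 9 Affymetrix arrays were taken from the authors' deposited table, whose values are log2, as judged from their range of 0.72 to 13.5. Per the submitters' processing notes they were made with MAS5; the normalization, log step and version were not given in the sources used here. Values were used as deposited. The platform annotation gives 1 gene for 16098 probe sets, and RefSeq (GRCh38.p14) matched all 16098 by Entrez identifier. A probe set was tested where it exceeded its array's 40th percentile (2.63 to 2.70) in at least 3 of 9 arrays, which gave 33376. All 9 arrays were fitted with limma 3.58.1 in R 4.3.3 (lmFit and eBayes, 6 residual and 2.12 prior degrees of freedom), two-sided, with Benjamini-Hochberg adjustment over all probe sets tested. Errors after a log2 change are standard errors of that fit. Arrays give no read depth, and their number limits the precision.

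Genes named in the text are the 12 highest, those next to the level, the 10 largest changes each way past the threshold per comparison (or the 4 smallest p-values where fewer than 4 passed), listed families and responsive microRNAs, host genes, and processing genes past the threshold. MIR1299, MIR644A, MIR4521 and other genes of the fit without mock replicate 1, and single genes beside a result, were chosen after their values were seen. The genes and lists were chosen with earlier results of these data known. The steps were tested on simulated data. Alternatives were quantile normalization, centring on the 75th percentile, no filter or a 60th percentile filter, a trended robust eBayes, only the 2 groups compared, a replicate block, repeated probe sets left out, levels of 4 and 5, and each array left out. Some microRNA genes are not reported here.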

Additional observations from a re-analysis of the deposited data

How the results depend on the processing

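With all 9 arrays kept, the count of microRNA genes past the threshold in agonist against GPR39 went from 4 to 2 with no filter. It was 10 with a 60th percentile filter and 2 with a level of 5. Of all probe sets, 4.35% passed with no filter, 16.6% with the 60th percentile filter and 9.06% in the main fit, which the level of 5 shares. In agonist against mock, 12 became 6 with only the 2 groups compared, and the processing and silencing genes went from 7 to 3, beside 9.39% of all probe sets. The host genes went from 1 to 0 in GPR39 against mock (beside 0.569%) and from 2 to 1 in agonist against GPR39 (beside 7.8%). Centring on the 75th percentile moved the median change of the 158 genes in agonist against mock from 0.15 to 0.22. The cause was not tested.

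Leaving out 1 array at a time gave 0 to 7, 2 to 6 and 9 to 19 microRNA genes in GPR39 against mock, agonist against GPR39 and agonist against mock, with median changes of -0.04 to 0.04, 0.11 to 0.19 and 0.082 to 0.195. Host genes ranged over 0 to 1, 1 to 3 and 2 to 4, and processing and silencing genes over 0 to 0, 1 to 4 and 4 to 6. Of all probe sets tested, 0.326% to 4%, 4.59% to 9.54% and 10.6% to 15% passed. Mock replicate 1 gave the 7 and the 19. GPR39 replicate 3 or agonist replicate 3 gave the 2, agonist replicate 1 the lowest median in agonist against mock.

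Same-numbered arrays did not deviate together (9 pairs, correlations of -0.10 to 0.07, 0 over 0.1), so the numbers were not taken to pair the arrays. With the replicate block, 0, 3 and 10 microRNA genes passed in place of 0, 4 and 12, 2 processing and silencing genes passed in agonist against GPR39, and 150, 1819 and 3955 of all probe sets in place of 391, 3025 and 5022. All probe sets past the threshold in GPR39 against mock numbered 637 with the 60th percentile filter, 663 with trended robust eBayes and 190 with only the 2 groups compared, and in agonist against mock 3133 with only the 2 groups compared. The share of them that was higher went from 63.9% to 74.7% and from 40.6% to 56.2% in these comparisons with centring on the 75th percentile. Leaving out 1 array at a time gave 108 to 1324 calls in GPR39 against mock, and the share higher turned to 31.6% of the 1324 without mock replicate 1 (81.8% of 137 without mock replicate 2, 80.6% of 108 without GPR39 replicate 3).

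Of 32 calls of single genes, 17 were lost in at least 1 of 19 settings. MIR3689D2 was lost in 11, MIR4525 in 10, MIR4756 (agonist against GPR39) and MIR1910 in 8, MIR4324 in 7, MIR941-1 in 5, MIR187 in 2, MIR196B in 1, DDX17 in 13, PAN2 (agonist against GPR39) in 9, and MIR7-3HG (GPR39 against mock) in 3. MIR4534, MIR3143, MIR574, MIR4519 and MIR4737 kept their calls in all 19. None of the 32 changed sign in a setting.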
